A study of Mus musculus with 9 samples.

Results

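The constitutive proteasome subunit genes were taken as the genes whose symbol starts with Psma to Psmg and a digit, after leaving out Psmb8, Psmb9, Psmb10, Psme1 and Psme2, the 5 genes of the interferon-inducible immunoproteasome, and pseudogene symbols. The deposited table holds 22322 genes; 51 of its symbols matched, and 46 remained as members. They were measured in 9 RNA-seq libraries of long-term haematopoietic stem cells (LT-HSCs), the bone marrow cells that can rebuild blood after transplantation, from C57BL/6 mice aged 6 to 8 weeks. The sort had kept CD150+ cells that carried Sca-1 and c-Kit but no lineage marker, CD48 or CD135, 500 to 800 from each mouse. The groups were 3 wild-type (WT) mice, 3 Cxcl10-/- mice, which lack a chemokine gene, and 3 Cxcr3-/- mice, which lack the gene of its receptor (no treatment is named, and how either allele was made is not given in the labels). With so few sorted cells per mouse, RNA had been amplified before library preparation, and fewer cells of a type and less RNA per cell cannot be told apart in such bulk samples.

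The proteasome degrades proteins tagged with ubiquitin. Its 20S core is a barrel of stacked rings: outer alpha rings that gate the entrance and inner beta rings, of which PSMB5, PSMB6 and PSMB7 carry the proteolytic sites. The 19S cap sits on the barrel's end; its base holds a ring of ATPases (PSMC1 to PSMC6) that unfold substrates, and its lid holds the deubiquitinase PSMD14. Blood stem cells are known for slow protein synthesis and for their dependence on protein quality control, and the transcription factor NRF1 (gene Nfe2l1) is known to raise proteasome genes when proteasome activity falls short. The members comprised 14 genes of the 20S core (7 alpha, 7 beta), 17 of the 19S cap (9 base, 8 lid) and 15 others: assembly chaperones, other activators and an inhibitor, tissue-specific subunits, and genes matched by symbol only. Among the last were Psmc3ip, a cofactor of meiotic recombination whose name comes from binding PSMC3, Psme3ip1, and Psme2b, a copy of Psme2.

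Members lay on 16 chromosomes, and distances between members on the same chromosome were not measured. RefSeq promoter windows (GRCm38.p6, 250 bases before to 50 after a transcript start) were on hand for 38 of the 46 members, in 41 windows. The letters CCGGAAG, the core of a site for ETS-family transcription factors, were searched on both strands and occurred in 66.7% of 15 windows of 19S genes and in 8.33% of 12 windows of 20S genes. They occurred in 18.9% of windows of all genes tested and in 8.86% of all 32851 windows. TGACNNNGC, the core of the antioxidant response element that NRF1 reads, occurred in 14.6% of members' windows and in 14.4% of windows of genes tested. CCAAT was in 6 of 12 windows of 20S genes and 4 of 15 of 19S genes (26.7%), against 38.1% of windows of genes tested. The windows of Psmb5 and Psmb6 held the antioxidant response core in the 20S core, and those of Psmc6 and Psmd12 in the 19S cap. Such a match is a description of letters and not of binding. The stretches upstream of the start that overlap no exon are printed below for 2 cap genes with the ETS letters, for the core gene Psmb6, which lacks them, and for the cap gene Psmc5, for which only a short stretch was free of exons. Capitals mark matches to the ETS letters, the CCAAT box or the antioxidant response core on either strand; every stretch reads 5′ to 3′ along the gene's own strand. Psmc6 (chr14:45329574-45329787, plus strand) held both an antioxidant response core and the ETS letters.
Psmc6: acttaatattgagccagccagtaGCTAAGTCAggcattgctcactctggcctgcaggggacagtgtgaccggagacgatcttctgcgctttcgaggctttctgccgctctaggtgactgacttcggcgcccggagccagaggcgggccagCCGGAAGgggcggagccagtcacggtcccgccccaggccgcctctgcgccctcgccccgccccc
Psmd4 (chr3:95042615-95042864, minus strand) held the ETS letters and a CCAAT box.
Psmd4: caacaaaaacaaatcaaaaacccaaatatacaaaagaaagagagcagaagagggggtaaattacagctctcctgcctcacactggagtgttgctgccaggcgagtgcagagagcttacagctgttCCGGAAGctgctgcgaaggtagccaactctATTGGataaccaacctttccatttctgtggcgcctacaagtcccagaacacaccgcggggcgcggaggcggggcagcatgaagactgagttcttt
Psmb6 (chr11:70525107-70525356, plus strand) ended in an antioxidant response core.
Psmb6: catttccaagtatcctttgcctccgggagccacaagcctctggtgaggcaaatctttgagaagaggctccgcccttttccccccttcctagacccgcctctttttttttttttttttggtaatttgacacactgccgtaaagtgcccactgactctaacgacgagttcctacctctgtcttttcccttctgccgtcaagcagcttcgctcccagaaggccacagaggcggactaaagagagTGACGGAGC
Psmc5 (chr11:106256080-106256153, plus strand) held none of the 3 motifs in its 74 bases.
Psmc5: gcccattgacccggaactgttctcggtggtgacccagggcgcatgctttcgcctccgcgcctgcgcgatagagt

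The 9 libraries held 12098498 to 17904629 expected counts. Cxcl10 itself had 36, 84 and 3 counts in the WT libraries, 0 in each Cxcl10-/- library, and 112, 553 and 176 in the Cxcr3-/- libraries. Cxcr3 had 8 counts in 1 WT library and 0 in the other 8, too few to check its label. The Cxcl10-/- libraries stood apart from the other 6: mitochondrial genes took 3.57 to 4.13% of their counts, against 12.6 to 13.1% in WT and 10.2 to 11.2% in Cxcr3-/-. Summed markers of 3 further kinds moved with that genotype. Summed endothelial markers (12 genes) were at 470 to 692 FPKM in Cxcl10-/-, 112 to 136 in WT and 102 to 160 in Cxcr3-/-. Of the 12, 5 passed the test as higher than WT, where 3.52% of all genes did. The log2 fold change was below 0 for 2 of them, the lowest at -0.33. Summed stromal and bone markers (8 genes) were at 90.6 to 349 FPKM, against 15.6 to 20.6 and 16.9 to 21.2. Against WT, 4 of the 6 tested passed as higher and 1 lay below 0, at a log2 fold change of -0.64. In Cxcr3-/- against Cxcl10-/-, 4 of the 6 passed as lower and 1 as higher. Summed immediate-early genes were at 323 to 643 FPKM, against 44.8 to 52.4 and 41.0 to 53.9, with 9 of the 9 tested higher. The LT-HSC markers summed to 581 to 699 FPKM over all libraries with none at 0, but Kit was lower in Cxcl10-/- (log2 fold change -0.75 ± 0.17, SE; adjusted p = 0.026, edgeR). Kit was the 1 of these 8 markers that passed against WT, and their log2 fold changes ran from -1.87 to 0.9. Lower without overlap were 2 of them and higher 0, against 15.4% and 14.8% of all genes. In Cxcr3-/- against Cxcl10-/- the 8 ran from -0.89 to 2.01, with 1 that passed as higher. Markers that the sort removes summed to 10.4 to 27.1 FPKM over the 9 libraries.

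In WT LT-HSCs the 20S core genes were expressed far above the 19S cap genes. On the FPKM scale, which divides by transcript length, the median WT level was 390 for the 14 core genes and 70.5 for the 17 cap genes. Levels of different genes rest here on amplified RNA, and how evenly it was copied was not tested. Of the core genes, 13 lay above the highest cap gene, and 11 cap genes lay below the lowest core gene. Of all 46 members, 45 had a WT mean of at least 1 FPKM and 43 of at least 10.

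Psmb2, a non-catalytic beta subunit, was the highest core gene at 940 ± 101 FPKM (SD, n = 3), followed by the catalytic Psmb6 at 922 ± 47.1; these neighbours differed by less than their spread. The alpha genes Psma3 (669 ± 46.6) and Psma7 (519 ± 80.1) came next, followed by Psmb3 at 486 ± 9.92. The 3 catalytic genes were far from equal: Psmb5, the chymotrypsin-like site and the target of bortezomib, was at 171 ± 11.3 FPKM and Psmb7, the trypsin-like site, at 80.8 ± 4.91, the lowest of the core and 11.6-fold below Psmb2. Psmb4 (175 ± 10.8) and Psmb5 did not differ beyond their spread. Psmb7 had fractional counts in every library, such as arise where reads are shared between gene models, and its exons overlap those of Nek6 on the other strand.

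Among cap genes the deubiquitinase gene Psmd14 was highest at 162 ± 14.2 FPKM, and the ATPase gene Psmc6 followed at 123 ± 18.9. The other ATPase genes lay lower: Psmc3 at 76.6 ± 7.11, Psmc1 at 70.5 ± 2.52, Psmc2 at 64.9 ± 8.2, Psmc4 at 59.2 ± 17.1 and Psmc5 at 36.5 ± 7.09. In the run of 6 genes from Psmd7 (74.0 ± 16.8) down to Psmc4, no gene differed from the next beyond their spread. Psmd4, the ubiquitin receptor of the base, was at 99.1 ± 17.5. The lid genes Psmd13 (10.9 ± 1.29) and Psmd3 (8.5 ± 1.33) were lowest, with Psmd3 19-fold below Psmd14. In FPKM of the amplified RNA, messages for subunits that assemble in equal number thus stood at unequal levels in core and cap alike.

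**Figure D1:**
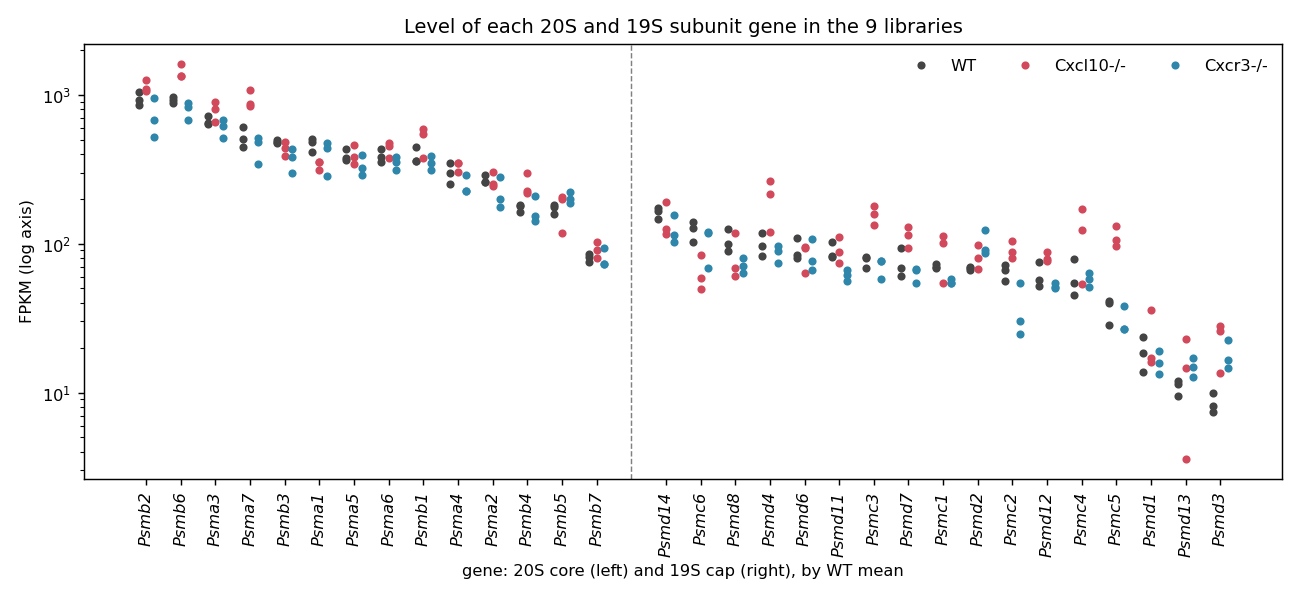
Levels of each 20S core and 19S cap gene in every library, in FPKM on a log axis, with genes in order of their WT mean; points are libraries and colours are genotypes. In WT, 13 of 14 core genes lie above Psmd14, the highest cap gene at 162 FPKM.

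The members outside core and cap spanned a wide range in WT. The 20S assembly chaperone genes Psmg4 (165 ± 12.3 FPKM), Psmg2 (118 ± 25.1) and Psmg1 (103 ± 4.81) were at or above most cap genes, and Psmg3 was at 23.8 ± 5.29. Psme3 and Psme4, whose products PA28-gamma and PA200 cap the core in the nucleus, were at 14.7 ± 2.79 and 12.2 ± 1.29 FPKM. Psmf1, which encodes the inhibitor PI31, was at 42.3 ± 4.86. Psma8, a testis alpha subunit, was present in WT at 14 ± 0.353 FPKM, whereas the thymus subunit gene Psmb11 averaged 0.0167 FPKM in WT, 0.02 in Cxcl10-/- and 0.06 in Cxcr3-/- and was left out of the tests.

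The excess of core over cap messages was present in every library of every genotype. The ratio of the median core gene to the median cap gene was 5.62, 5.35 and 5.47 in the WT libraries, 5.05, 4.84 and 3.94 in Cxcl10-/- and 5.09, 6.19 and 6.1 in Cxcr3-/-. All 3 Cxcl10-/- values lay below all WT values, while the Cxcr3-/- values lay on both sides of them. The ratio of the summed levels overlapped between all groups, with 5.07 ± 0.219 (SD, n = 3) in WT, 4.81 ± 0.147 in Cxcl10-/- and 5.06 ± 0.589 in Cxcr3-/-. Within the cap, the median lid gene over the median base gene gave 1.2, 1.03 and 1.11 in WT, 0.861, 0.802 and 0.869 in Cxcl10-/- and 1.11, 0.964 and 1.02 in Cxcr3-/-. The Cxcl10-/- libraries were lowest here too, with no overlap with either other group. The summed base genes were at 617 ± 57.0 FPKM in WT, 934 ± 111 in Cxcl10-/- and 554 ± 41.5 in Cxcr3-/-, while the summed lid genes were at 601 ± 59.6, 630 ± 69.0 and 487 ± 51.6. An exact permutation test of 3 libraries against 3 cannot give p below 0.1, and these ratios were formed over genes chosen with results known, so no p is attached to them.

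**Figure D2:**
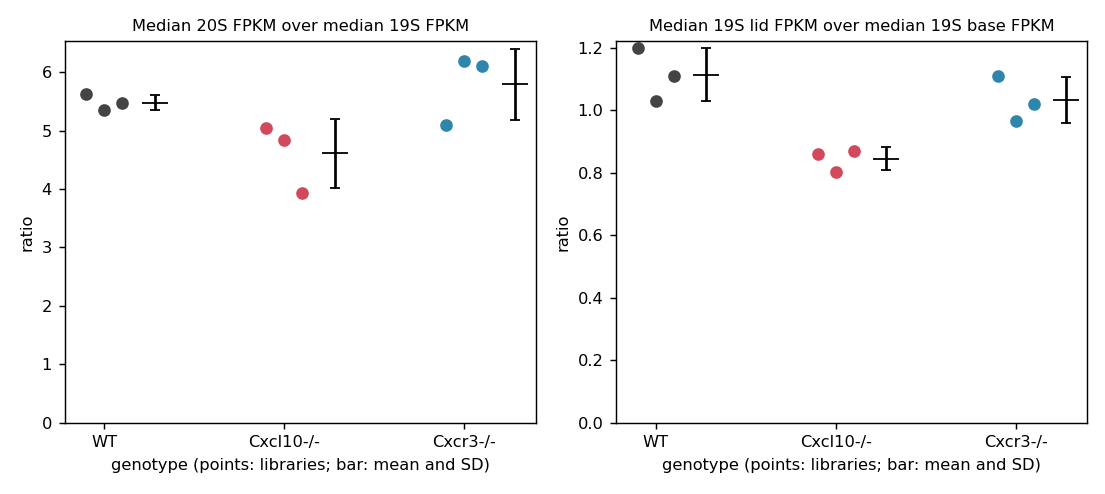
Ratios formed within each library, which do not depend on how libraries are scaled: median 20S core over median 19S cap FPKM, and median lid over median base FPKM; points are libraries and bars are the mean and SD of 3. The 3 Cxcl10-/- libraries lie lowest in the lid over base panel, at 0.802 to 0.869.

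Differences between genotypes were tested with edgeR's quasi-likelihood test on the counts of 10866 genes, 45 of them members, with Benjamini-Hochberg adjustment over all and a threshold of 0.05. Values for single libraries are given from here as CPM, the count scaled by a TMM-adjusted library size, and every ± on a log2 fold change is its standard error. The 3 comparisons share libraries, so their results are not independent of one another.

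In Cxcl10-/- LT-HSCs 4 of the 6 members that passed against WT were 19S genes. Of these, 2 ATPases of the base and 1 lid gene rose and another ATPase fell. The other calls, both higher, were 1 gene of the 20S core and the assembly chaperone gene Psmg4. Only 1 of the 6 calls, Psmc5, held in all 20 other settings. Against WT, 6 of 45 members passed (13.3%), 5 higher and 1 lower, where 7.22% of all genes passed, 3.52% as higher and 3.7% as lower. By group, 1 of 14 core genes and 4 of 17 cap genes passed; the median log2 fold change was 0.08 for the core, 0.25 for the cap and 0.06 for all genes. Within the cap it was 0.40 for the 9 base genes, of which 8 lay above 0, and -0.06 for the 8 lid genes. The core median minus the cap median was -0.17 on the log2 scale. The core to cap log2 ratio had an SD of 0.191 over the Cxcl10-/- libraries and 0.0351 over the WT libraries. Groups did not overlap for 9 members that were higher (9 of 45, against 14.8% of all genes) and 3 that were lower (6.67%, against 15.4%). At an unadjusted p below 0.05 stood 14 of 45 members, against 24.3% of all genes, and 16 of 45 lay below 0 (35.6%), against 46.3%.

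Psmc5, an ATPase of the base at chr11:106256154-106263120 (GRCm38, GENCODE M21), showed the clearest difference. It stood at 56.6, 38.9 and 55.8 CPM in WT, 123, 165 and 142 in Cxcl10-/- and 34.4, 50.7 and 36.1 in Cxcr3-/-. Every Cxcl10-/- library thus held more than the highest of the other 6. Its log2 fold change against WT was 1.51 ± 0.25 (adjusted p = 0.00646), and it was the only member to pass under all 20 other settings tried, which include leaving out each library in turn. Psmc3, another ATPase, at chr2:91054009-91066369, stood at 140, 136 and 113 CPM in WT, 251, 276 and 223 in Cxcl10-/- and 90.8, 126 and 122 in Cxcr3-/-. It rose by 0.95 ± 0.19 (adjusted p = 0.0124), again with no overlap. Without WT replicate 2 or 3 its adjusted p was 0.0598 or 0.068, with log2 fold changes of 0.98 and 0.86. Exons of Psmc3 overlap Slc39a13 on the other strand, and whether counting used the strand is not stated.

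Psmc6, also an ATPase of the same ring, went the other way. It stood at 332, 289 and 226 CPM in WT and 107, 125 and 192 in Cxcl10-/-, with no overlap, and at 251, 269 and 154 in Cxcr3-/-. The log2 fold change was -1.0 ± 0.26 (adjusted p = 0.0432). The ring's genes therefore did not move as a unit: the 6 ATPase genes ranged from -1.0 to 1.51, with 2 that rose, 1 that fell and 3 that did not pass. GC content was taken over the longest transcript of each gene in GENCODE M21. Psmc6 has the lowest of the members, 37.0%, against 51.9% in Psmc5 and 55.1% in Psmc3. Fold changes in this comparison rose with GC content across all genes (Spearman rho = 0.433 over 10856 genes, which are not independent) and across the 45 members (rho = 0.536). With a GC term in the fit, Psmc6 stood at -0.27 (adjusted p = 0.628) and Psmc3 at 0.59 (adjusted p = 0.101), and Psmc5 remained the 1 member past the threshold. The Psmc6 call also ended without any 1 of 7 libraries, every one but Cxcl10-/- replicate 3 and Cxcr3-/- replicate 3, with adjusted p between 0.0535 and 0.154.

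The remaining calls against WT were less steady. Psmd3, the lowest cap gene and a scaffold of the lid, stood at 17.0, 18.1 and 21.8 CPM in WT and 58.1, 52.8 and 29.5 in Cxcl10-/- (1.3 ± 0.34, adjusted p = 0.0417). Psma7, an alpha subunit and the 1 core gene that passed, stood at 597, 423 and 467 CPM in WT and 737, 754 and 1005.5 in Cxcl10-/- (0.75 ± 0.2, adjusted p = 0.0447). Psmg4, which acts with Psmg3 in assembling the alpha ring, stood at 93.0, 81.0 and 92.5 CPM in WT and 138, 131 and 216 in Cxcl10-/- (0.86 ± 0.24, adjusted p = 0.0488). The groups did not overlap for any of the 3, yet each call ended without any 1 of the 3 WT libraries. The Psmd3 call held only without Cxcl10-/- replicate 3 among the 9 fits that leave out a library, with adjusted p of 0.0553 to 0.153 in the others. The Psma7 call also ended without Cxcl10-/- replicate 3 or Cxcr3-/- replicate 2 or 3 (0.0533 to 0.186), and the Psmg4 call without Cxcl10-/- replicate 3 or any Cxcr3-/- library (0.05 to 0.183). With a GC term in the fit none of the 3 passed: Psma7, which has the highest GC content of the members (57.4%), stood at 0.3 (adjusted p = 0.474), Psmg4 at 0.51 (0.249) and Psmd3 at 0.94 (0.136). Psmb6, a catalytic core gene, fell just outside the threshold: 832, 753 and 711 CPM in WT and 1025.2, 1021.2 and 1315.5 in Cxcl10-/- (0.55 ± 0.15, adjusted p = 0.0502), with no overlap; it passed in 9 of the 20 other settings.

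The other core genes did not pass, in either direction. Psma1 stood at 648, 598 and 507 CPM in WT and 361, 403 and 435 in Cxcl10-/-, all lower, with a log2 fold change of -0.55 ± 0.19 (adjusted p = 0.108). Psmb4, a beta subunit, stood at 206, 219 and 219 CPM in WT and 340, 253 and 263 in Cxcl10-/-, all higher (0.41 ± 0.19, adjusted p = 0.206). The catalytic Psmb5 was at -0.09 ± 0.23 and Psmb7 at 0.09 ± 0.21; their intervals of 2 SE ran from -0.55 to 0.37 and from -0.32 to 0.5. Both values moved with a GC term in the fit, Psmb5 (GC content 56.6%) to -0.51 and Psmb7 (40.8%) to 0.54, with adjusted p of 0.274 and 0.181. Psmd4, at 129, 139 and 97.4 CPM in WT, was uneven in Cxcl10-/- at 242, 137 and 310, and missed the threshold (0.91 ± 0.29, adjusted p = 0.0726).

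Replicate spread was widest in Cxcl10-/- for the cap. For the core, the median coefficient of variation of CPM over the 3 libraries of a group was 11.4% in WT, 15.0% in Cxcl10-/- and 16.9% in Cxcr3-/-. For the cap it was 16.8%, 31.7% and 16.4%. Over all genes tested it was 19.6%, 37.3% and 23.8%, above both the core and the cap in each genotype. Genes were not matched on expression level for this. Some members of wide spread in Cxcl10-/- had 1 library far below the other 2. Psmd13 stood at 2.41, 18.7 and 38.0 CPM and Psmf1 at 12.4, 131 and 120, in both with replicate 1 lowest, whereas WT ran from 18 to 21.4 for Psmd13 and from 72.0 to 91.4 for Psmf1. Psma8 stood at 1.14, 12.7 and 28.4 CPM in Cxcl10-/-, against 22.8 to 24.0 in WT.

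**Figure D3:**
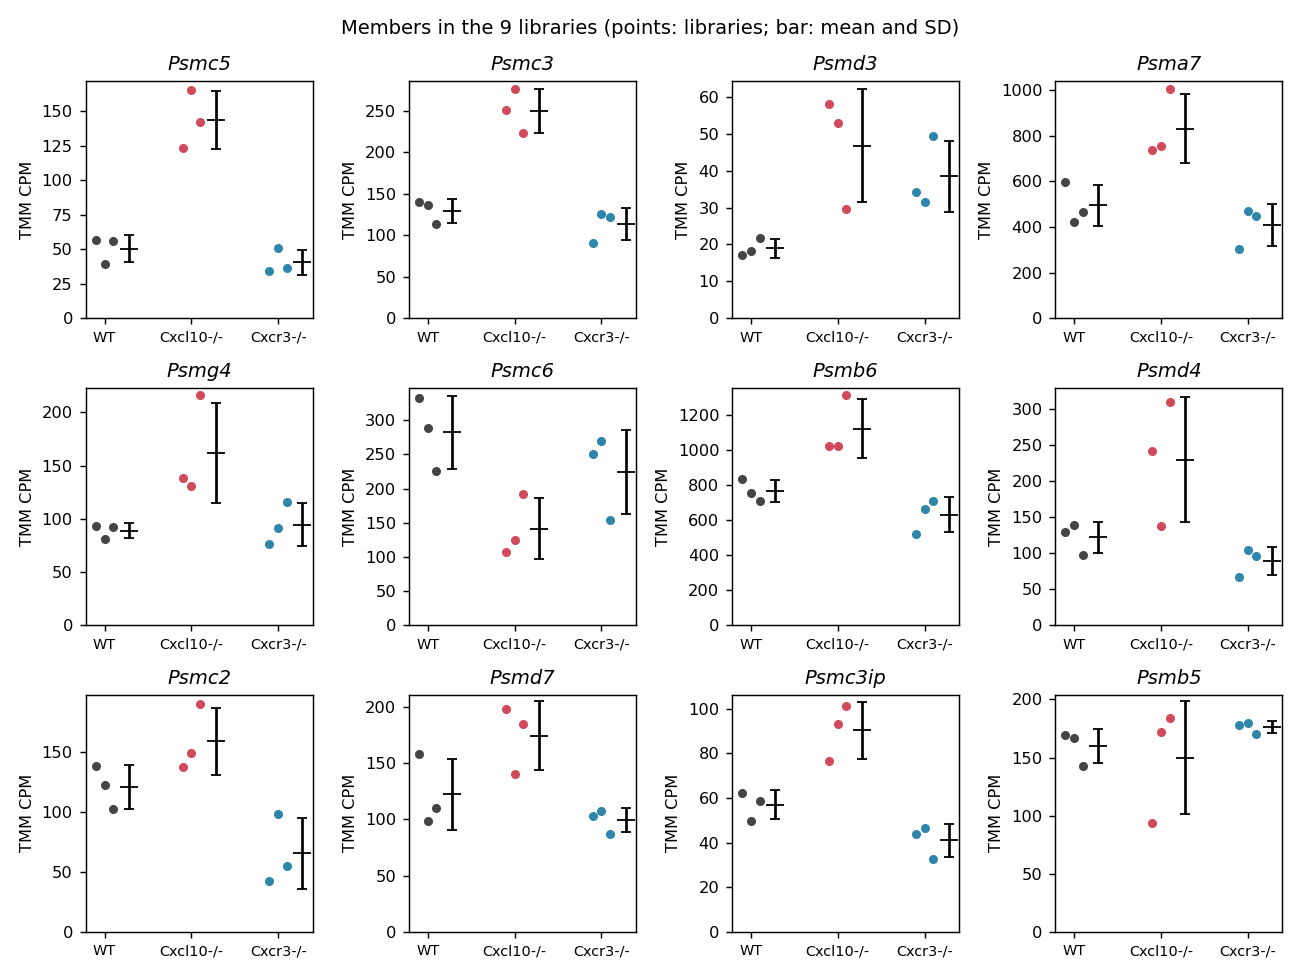
TMM-normalised CPM of 12 members in the 9 libraries, with points for libraries and bars for the mean and SD of each genotype. Psmc5 and Psmc3 lie higher in all 3 Cxcl10-/- libraries than in the other 6, and Psmc6 lies lower in Cxcl10-/- than in WT.

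Mitochondrial share and the summed endothelial, stromal and immediate-early markers moved with Cxcl10-/- in the same 3 libraries, by the values given above. Their part in these proteasome differences was not tested. With mitochondrial genes left out of the counts, the call count was 4 and the core and cap medians were 0.07 and 0.24.

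Loss of Cxcr3 left no proteasome gene past the threshold against WT, although most fitted values were slightly below 0. No gene of the 10866 passed in edgeR (0.0%), and 681 genes (6.27%) had an unadjusted p below 0.05, 6 of them members. DESeq2 called 78 genes (0.718%) and limma on log2(FPKM + 1) none; neither called a member. The fitted change was negative for 38 of 45 members (84.4%), against 47.9% of all genes, with medians of -0.28 for the core (13 of 14 negative), -0.31 for the cap (14 of 17) and 0.02 for all genes. The core median minus the cap median was 0.03, less than the spread of the core to cap log2 ratio over the Cxcr3-/- libraries (SD 0.158). These medians stayed below 0 under every scaling tried. The negative share is a description, since genes measured in the same libraries are not independent.

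The 5 members with the smallest p in this comparison did not pass. Psmc2, an ATPase, stood at 138, 122 and 102 CPM in WT and 42.6, 98.6 and 55.0 in Cxcr3-/- (-0.88 ± 0.29, adjusted p = 0.663). Psmd3 was the exception in sign, at 17.0, 18.1 and 21.8 CPM in WT and 34.3, 31.6 and 49.5 in Cxcr3-/- (1.02 ± 0.34, adjusted p = 0.667). Psmd11, a lid gene, stood at 147, 116 and 109 CPM in WT and 79.2, 72.3 and 86.0 in Cxcr3-/- (-0.65 ± 0.22, adjusted p = 0.667). The groups did not overlap in these 3 genes. Psmb3, a beta subunit, was at -0.45 ± 0.17 (adjusted p = 0.716) and the lid gene Psmd8 at -0.62 ± 0.26 (adjusted p = 0.749), also without overlap. Over all members, 9 of 45 were lower without overlap (against 9.04% of all genes) and 4 were higher (8.89%, against 9.81%).

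Psma8 had the lowest fitted value of the members. Its 3 Cxcr3-/- libraries were close together at 7.4, 7.56 and 7.79 CPM, all below the WT values of 24.0, 23.1 and 22.8. The log2 fold change of -1.62 ± 0.77 gave an adjusted p of 0.826; the fit pools the spread over all 3 genotypes, and the Cxcl10-/- libraries ran from 1.14 to 28.4 CPM. The lid deubiquitinase gene Psmd14 was at -0.45 ± 0.24, Psmc1 at -0.41 ± 0.25 and Psmb5 at 0.14 ± 0.23, with 2 SE intervals of -0.92 to 0.03, -0.91 to 0.08 and -0.32 to 0.6.

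**Figure D4:**
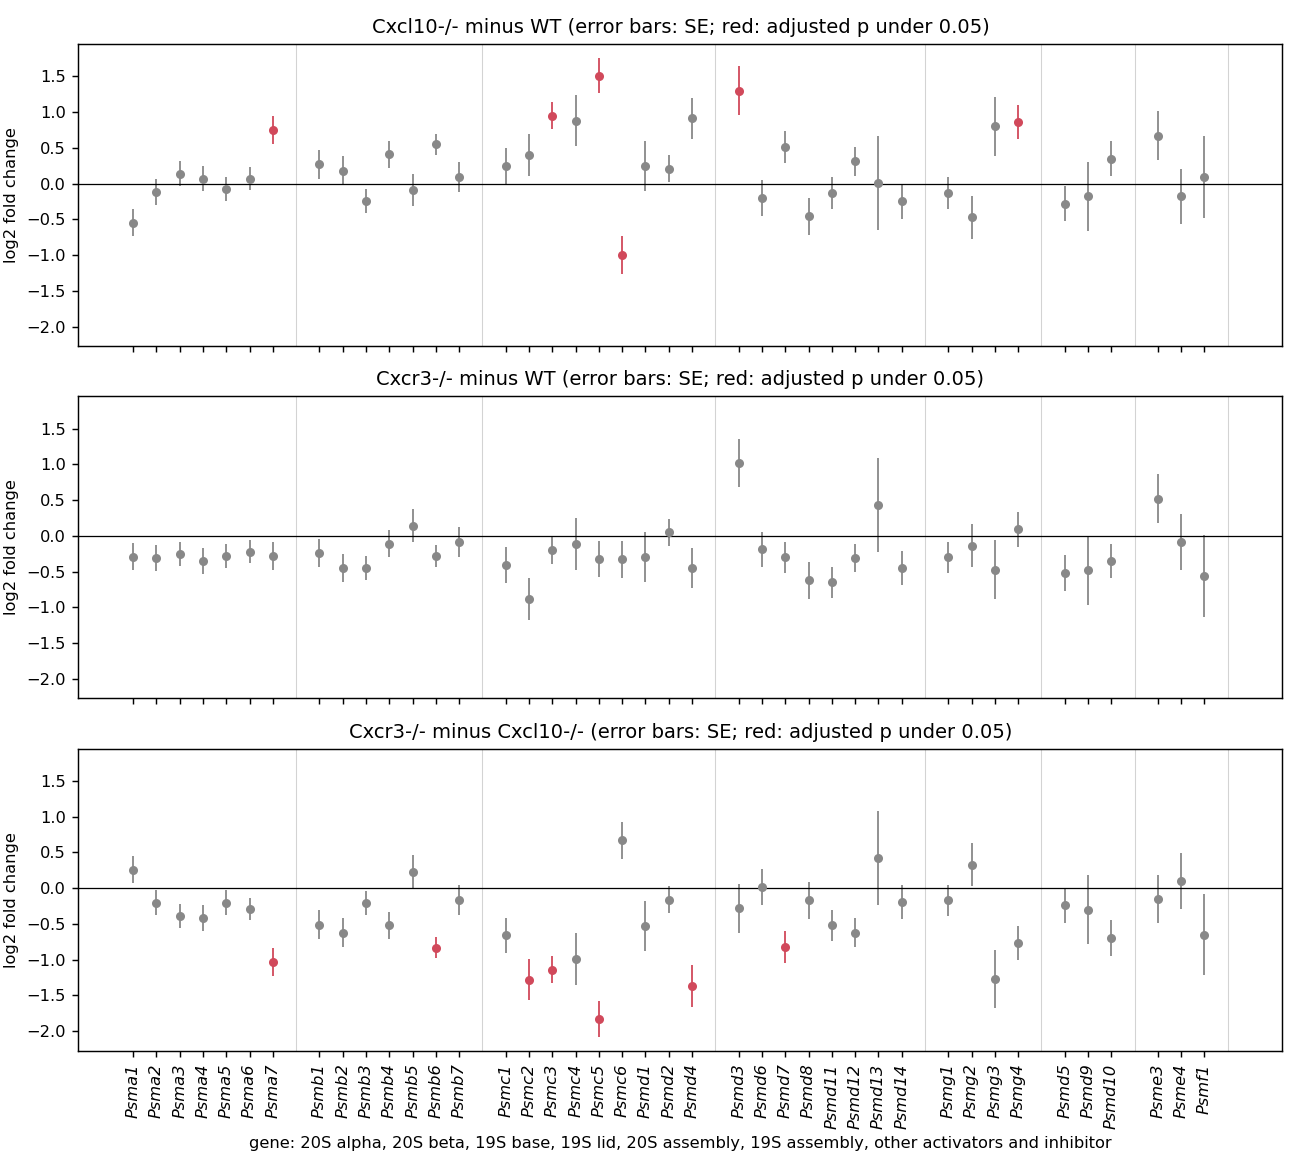
Fitted log2 fold change of the core, cap, assembly, activator and inhibitor genes in the 3 comparisons, with bars of 1 standard error and red for members past the threshold. In Cxcr3-/- minus Cxcl10-/- every red point lies below 0; Psmc3ip, which is not drawn, also passed.

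More members passed between the knockouts than between either knockout and WT, and so did more of all genes. Of all genes 10.5% passed between the knockouts, 7.22% between Cxcl10-/- and WT and 0.0% between Cxcr3-/- and WT. In Cxcr3-/- against Cxcl10-/-, 8 of 45 members passed and all 8 were lower (17.8%), where 5.41% of all genes passed as lower and 5.1% as higher, 10.5% in all. DESeq2 called 15 members, all lower, and 8.79% of all genes as lower. The 8 edgeR calls included the ATPases Psmc5, Psmc3 and Psmc2, the ubiquitin receptor Psmd4 and the lid gene Psmd7. The others were the core genes Psmb6 and Psma7, and Psmc3ip, which is not a subunit. Medians were -0.34 for the core (2 of 14 passed), -0.53 for the cap (5 of 17), -0.99 for the base (4 of 9), -0.24 for the lid (1 of 8) and -0.05 for all genes. The core median minus the cap median was 0.19, where the core to cap log2 ratio had an SD of 0.191 in Cxcl10-/- and 0.158 in Cxcr3-/-. There were 15 members lower without overlap (33.3%, against 14.4% of all genes) and 0 higher (against 14.5%). Below 0 lay 38 of 45 (84.4%), against 52.4% of all genes, and 21 had an unadjusted p below 0.05, against 26.2%.

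By p, Psmc5 again stood first, at -1.83 ± 0.25 (adjusted p = 0.00199), and Psmc3 was next at -1.14 ± 0.19 (adjusted p = 0.00451). Psmb6 stood at 1025.2, 1021.2 and 1315.5 CPM in Cxcl10-/- and 518, 664 and 711 in Cxcr3-/- (-0.83 ± 0.15, adjusted p = 0.00782). Psma7 stood at 737, 754 and 1005.5 CPM against 302, 471 and 450 (-1.03 ± 0.2, adjusted p = 0.00988). These 4 passed under all 20 other settings.

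The other 4 calls were lost in some settings. Psmd4 stood at 242, 137 and 310 CPM in Cxcl10-/- and 66.9, 104 and 95.2 in Cxcr3-/- (-1.37 ± 0.29, adjusted p = 0.0133; without Cxcr3-/- replicate 1, -1.2 and 0.0627). Psmc3ip stood at 76.4, 93.1 and 101 CPM against 43.9, 46.5 and 32.7 (-1.13 ± 0.24, adjusted p = 0.0136; without Cxcr3-/- replicate 3, -0.99 and 0.0551). Psmc2 stood at 137, 149 and 190 CPM against 42.6, 98.6 and 55.0 (-1.28 ± 0.29, adjusted p = 0.0181; without Cxcr3-/- replicate 1 or 3, 0.0686 or 0.074). Psmd7, a lid gene and partner of Psmd14, stood at 198, 140 and 185 CPM against 103, 107 and 87.2 (-0.82 ± 0.22, adjusted p = 0.0365). The Psmd7 call ended without any 1 of 6 libraries, with adjusted p of 0.0587 to 0.127: Cxcl10-/- replicates 1 and 3, every Cxcr3-/- replicate and WT replicate 3. It also ended with a GC term (-0.73, adjusted p = 0.0635), and with only the groups compared in the fit the calls of Psmd7, Psmc2 and Psmc3ip ended (adjusted p of 0.0706, 0.058 and 0.054). In all 4 genes every Cxcr3-/- library lay below every Cxcl10-/- library. Psmc3ip had fractional counts in every library, and its exons overlap those of Mlx on the other strand.

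Of the members outside core and cap, only Psmc3ip passed between the knockouts. The assembly chaperone gene Psmg3 stood at 51.3, 20.9 and 28.5 CPM in Cxcl10-/- and 11.9, 15.7 and 14.1 in Cxcr3-/- (-1.27 ± 0.41, adjusted p = 0.0692), and Psmg4 was at -0.77 ± 0.24 (adjusted p = 0.0582). Psmg1 (-0.17 ± 0.22) and Psmg2 (0.33 ± 0.3) were near 0 within error. The activator genes Psme3 (-0.15 ± 0.34) and Psme4 (0.1 ± 0.39) and the inhibitor gene Psmf1 (-0.65 ± 0.57) had wide intervals, the last from -1.79 to 0.5.

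Genes of the same pathway that are not members were read from lists set beside them. Their values come from the main fit only, and whether their calls hold under the other settings was not tested. Of the 5 immunoproteasome genes, whose products replace or cap constitutive subunits, 3 were higher in Cxcl10-/- than in WT: Psmb10 (0.93, adjusted p = 0.0215), Psmb9 (0.68, adjusted p = 0.0378) and Psme1 (0.66, adjusted p = 0.0401). Psmb8 was at 0.63 (adjusted p = 0.0595) and Psme2 at 0.44 (adjusted p = 0.115). Among all genes, 3.52% passed as higher in this comparison. Among the ubiquitin genes reported here Ubb, which encodes a chain of ubiquitin repeats, was higher (0.95 ± 0.22, adjusted p = 0.0258). Of the 5 genes of the NRF1 pathway, Vcp, the ATPase that draws NRF1 out of the endoplasmic reticulum, passed: 135, 152 and 138 CPM in WT and 244, 296 and 279 in Cxcl10-/- (0.95 ± 0.16, adjusted p = 0.00635). Nfe2l1 itself stood at 13.9, 19.3 and 16.1 CPM in WT and 46.8, 27.3 and 14.9 in Cxcl10-/- and did not pass (0.85 ± 0.44, adjusted p = 0.258).

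Pomp, the maturation factor of the core particle, stood at 509, 406 and 417 CPM in WT, 600, 617 and 645 in Cxcl10-/- and 284, 421 and 371 in Cxcr3-/-. It did not pass against WT in Cxcl10-/- (0.48 ± 0.16, adjusted p = 0.0911) and was lower in Cxcr3-/- than in Cxcl10-/- (-0.79 ± 0.16, adjusted p = 0.0123). It was the only one to pass in that comparison of 16 cap-associated and accessory genes tested (18 listed), and none of the 16 passed between Cxcl10-/- and WT. Of the pathway genes reported here, Ubb (-1.71 ± 0.22, adjusted p = 0.00146), Vcp (-0.58 ± 0.15, adjusted p = 0.0328) and 3 immunoproteasome genes, Psmb8, Psmb10 and Psme1, were lower in Cxcr3-/- than in Cxcl10-/-, and Rps27a, a ubiquitin fusion gene, was higher (0.49, adjusted p = 0.0472). Among all genes, 5.41% passed as lower and 5.1% as higher in Cxcr3-/- against Cxcl10-/-. No gene of these lists passed between Cxcr3-/- and WT.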

How the data were processed

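RNA from 500 to 800 sorted cells of each of 9 mice was amplified with the Discover-sc WTA kit, per the series' design text. Per the file headers, the authors deposited FPKM (length- and depth-normalised) and counts per gene and library. The deposited counts are treated here like expected counts of RSEM: 87.1% of values are whole and the rest fractional. RSEM, StringTie, HISAT2 and fastp are listed in the submitters' processing notes; for versions, build, annotation and strand setting, nothing is given in the sources used here. Expected counts were rounded and tested with edgeR 4.0.16 in R 4.3.3 (TMM, quasi-likelihood, 1 mean per genotype over 9 libraries, Benjamini-Hochberg over all genes). Only the 10866 genes averaging 1 FPKM or more were tested. This code was tested on simulated data. FPKM served for levels between genes, for ratios within libraries and for summed levels of gene groups and markers. Tests between genotypes used the counts, and single genes are compared between genotypes in CPM except where FPKM is named. DESeq2 1.42.0, limma 3.58.1 on log2(FPKM + 1), other filters and scalings, a GC term and fits without each library were alternatives; limma on log2 CPM was added after seeing the data. Replicates were separate mice, per the design text; no preparation day or batch is given.

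Members and lists were chosen with earlier results of these data known. A result of the other pathway genes is not reported here. Members past the threshold in any comparison, the 5 smallest p where fewer than 5 passed, a list of catalytic and accessory genes, and the highest and lowest core and cap genes by WT level were named; Psmb2, Psmb3, Psmb4, Psma1, Psma3, Psmc4 and Psmd13 were in part chosen after their values were seen. Positions came from GENCODE M21 (GRCm38) by Ensembl identifier for all 46 members. Of the members, 11 had a fractional count in at least 1 library and 13 have exons that overlap another gene.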

Additional observations from a re-analysis of the deposited data

How the results depend on the processing

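No member past the threshold changed sign under the 20 other settings, no comparison's core or cap median changed sign in those that keep all libraries (the core median of 0.08 for Cxcl10-/- minus WT became -0.01 without Cxcl10-/- replicate 3), and no member passed between Cxcr3-/- and WT in any. Against WT, the 6 calls in Cxcl10-/- became 1 with a GC term and 2 with the replicate block or with only the groups compared in the fit; fits without 1 library gave 1 to 7, with 1 without WT replicate 2 or 3, 2 without WT replicate 1 or Cxcr3-/- replicate 2 and 3 without Cxcr3-/- replicate 3, and other settings gave 4 to 9. Between the knockouts, the 8 calls became 15 in DESeq2 and 5 with only the groups compared in the fit; fits without 1 library gave 5 (without Cxcr3-/- replicate 1 or 3) to 13 (without Cxcl10-/- replicate 1). Psmc5 alone kept its call against WT in all settings, and Psma7, Psmb6, Psmc3 and Psmc5 did so between the knockouts. The cause of these shifts was not tested. Core minus cap ranged over fits without 1 library from -0.26 to -0.1 for Cxcl10-/- minus WT, from -0.03 to 0.15 for Cxcr3-/- minus WT (0.15 without Cxcr3-/- replicate 1; 0.03 with all libraries) and from 0.08 to 0.34 between the knockouts.

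The genotypes share replicate numbers in the labels, but over all genes same-numbered libraries did not deviate together (r from -0.0836 to 0.0191). Such a correlation cannot show whether some genes share an effect of preparation. The numbers were not used as pairs in the main fit. With the replicate block the calls were 2, 0 and 8 in the 3 comparisons, against 6, 0 and 8 without it.

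The groups have 3 libraries each, and the standard error of the low gene Psmd13 is 0.66 on the log2 scale. Whether libraries were prepared together by genotype is not given in the labels.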

Other observations

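For some members FPKM and counts differed in what they showed: the transcript length implied by a gene's counts and FPKM differed between libraries. Psmd2, the large scaffold subunit of the 19S base, averaged 68.2 ± 1.42 FPKM (SD, n = 3) in WT and 99.8 ± 20.1 in Cxcr3-/-, while the count fit gave a log2 fold change of 0.05 ± 0.19. Its implied length, relative to its mean over libraries, was 1.07, 1.09 and 1.12 in WT, 1.09, 1.11 and 1.24 in Cxcl10-/- and 0.74, 0.889 and 0.782 in Cxcr3-/-. All 3 Cxcr3-/- libraries lay below the other 6. The PI31 gene Psmf1 showed 0.955, 0.951 and 0.912 in WT, 0.806, 1.05 and 0.8 in Cxcl10-/- and 1.32, 1.05 and 1.28 in Cxcr3-/-. The lid gene Psmd13 had the widest range of the members, 2.59-fold, with Cxcl10-/- replicate 1 lowest at 0.466.

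The highest value was more than 1.5 times the lowest in 7 of 45 members (15.6%), against 16.0% of 10163 genes with counts in every library, and the median range was 1.04-fold for members and 1.06-fold for all. Whether this stems from isoform use or from the estimate of it was not tested. These genes were picked after their values were seen.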
